A study of Caenorhabditis elegans with 6 samples.

Results

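The genes described here encode proteins of the mitochondrial ribosome and of the respiratory chain in Caenorhabditis elegans. They are the rows of the deposited small RNA tables whose names begin with mrpl, mrps, nuo, cco, cox, atp, ucr, cyc, sdha, sdhb or sdhd followed by a hyphen and a number. There are 94 such genes among 46761 rows, with 39 large-subunit and 27 small-subunit ribosomal genes, 6 genes of complex I, 4 of complex II, 7 of complex III and cytochrome c, 6 of complex IV and its assembly, and 5 of complex V. The rule used names and no measured value, but the genes were chosen with earlier results of these data known.

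Mitochondria keep a small genome of their own, and a dedicated ribosome inside the organelle translates its messages. The proteins of that ribosome, and most subunits of the 4 respiratory complexes and the ATP synthase, are encoded in the nucleus and imported. Worms that lose part of this machinery early in life can live longer and switch on a mitochondrial stress response. 22G RNAs are short antisense RNAs that RNA-dependent RNA polymerases make on messenger RNA templates. They are loaded on Argonautes, among them CSR-1, which binds RNAs against many germline-expressed genes, and the WAGO proteins, which silence their targets.

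Small RNAs were sequenced from whole gravid adults of the F2 generation. In the High group the P0 grandparents had been kept at 25 °C, and in the Low group at 16 °C. P0 worms of both groups were moved as L4 larvae to 20 °C, at 12 worms a plate, and all later growth was at 20 °C, with 1000 F2 larvae a plate grown for 72 h after bleaching of the F1. The study's title places the comparison within the inheritance and resetting of a change in expression set off by the environment. All worms were of strain BCN1050, which is unc-119(ed3) III with crgIs1002 in an N2 background. crgIs1002 is an integrated transgene that expresses mCherry from the daf-21 promoter with the unc-54 3′UTR and carries unc-119(+) as rescue, so High and Low worms share the transgene and the mutation. Each group has 3 libraries, which the labels call biological replicates.

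The 22G tables held between 1380170 and 2685999 reads per library, the 26G tables between 18704 and 37706 and the 21U tables between 37630 and 59648. The values below are normalized counts, which are reads divided by a size factor for each library. Low replicate 1 stood apart, with a normalized 26G total of 57141 against 17491 to 25760 in the other 5 libraries. Its normalized 21U total was 59360, against 41430 to 45567 in the other 5, and it had the fewest 22G reads. The number after the replicate label in its column name is also apart from those of the other 5, and what it marks is not given. Its 22G counts also differed more from those of Low replicates 2 and 3 (mean chi-square per feature 6.91 and 6.45) than other libraries of the same group differed from each other (2.50 to 3.56). Leaving it out changed neither 22G call on these genes, and its effect on hsp-60 is given below.

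The 94 genes gave a 22G signal in nearly every case. Of the 94, 92 had at least 1 read, and 91 reached the mean of 5 normalized counts needed for a test, which is 96.8%, against 40.5% of all rows that Ensembl annotates as protein-coding (7846 of 19368). No gene reached the minimum mean in one group while missing it in the other. The genes not tested were cyc-2.2, a copy of the cytochrome c gene, atp-6, an ATP synthase gene on mitochondrial DNA, both with 0 reads, and ucr-2.2, a copy of the complex III core 2 gene, with 24 reads over the 6 libraries. The signal was moderate. In normalized counts, which set the precision of a test, the median of the 91 was 52.3, against 57.4 over all tested features, and 13 of 91 (14.3%) were above 100, against 33.9% of all tested features. None exceeded 500, against 7.02% of all tested features. Per kb of exon, the median was 49.4 for these genes and 41.4 for protein-coding genes.

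**Figure D1:**
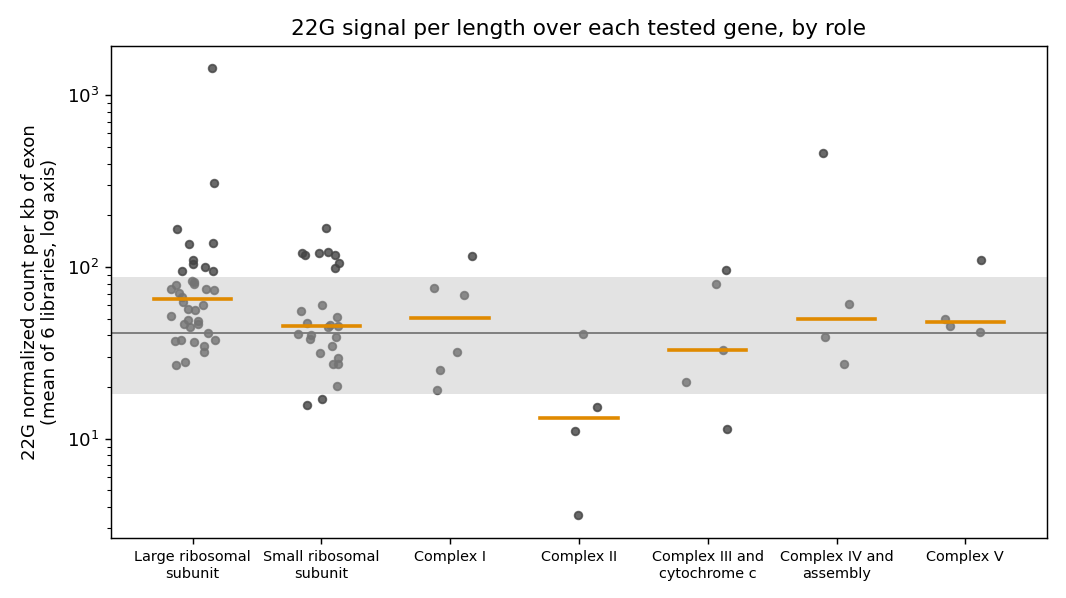
22G normalized count per kb of exon, on a log axis, for each tested gene with an annotated length, grouped by role; points are genes (mean of 6 libraries), orange lines role medians, and the grey line and band the median and quartiles of tested protein-coding genes. mrpl-36 stands at 1437 per kb and the complex II genes are the lowest group, with a median of 13.2 per kb.

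Per kb of exon, mrpl-36 had the highest 22G level of the 90 genes with an annotated length, 1437 normalized counts. It encodes one of the smallest proteins of the large subunit and ranked 214 of 8469 tested features with an annotated length. cox-17, whose product carries copper to cytochrome c oxidase, followed with 463 per kb, then mrpl-35 with 307, mrps-28 with 170 and mrpl-30 with 167. The 4 complex II genes among the 94 were lowest, with a median of 13.2 per kb, against 64.8 for the large subunit, 45.6 for the small subunit, 50.4 for complex I, 32.8 for complex III and cytochrome c, 49.7 for complex IV and 47.6 for complex V. The complex II gene mev-1, which falls outside the 94 by its name, had 122 per kb.

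Of the 3 genes with the most reads in each role, mrpl-36 alone passed the test between High and Low worms. In the large subunit, mrpl-45 averaged 197 ± 11.6 normalized counts in High worms and 209 ± 5.55 in Low worms (SD over 3 libraries a group, as for all means below), and mrpl-46 averaged 173 ± 13.5 in High and 177 ± 26.4 in Low. In the small subunit, mrps-30 averaged 206 ± 9.30 in High and 204 ± 7.58 in Low, and its log2 difference was 0.01 ± 0.09 (SE).

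In complex I, nuo-4, the counterpart of human NDUFA10, averaged 119 ± 17.6 in High and 129 ± 7.41 in Low, and nuo-6, a gene for an accessory subunit, averaged 72.2 ± 4.07 in High and 79.4 ± 5.94 in Low. In complex IV, cox-17 had normalized counts of 155, 194 and 140 in High libraries and 141, 116 and 145 in Low libraries, and these overlapped. cox-10, which encodes the enzyme that farnesylates heme for the oxidase, averaged 91.1 ± 6.20 in High and 99.3 ± 6.56 in Low. In complex V, the ATP synthase beta subunit gene atp-2 had 85.9, 85.3 and 91.7 in High libraries and 86.4, 90.1 and 85.7 in Low libraries. Its log2 difference was 0.00 ± 0.11 (SE), with a 95% interval from 0.84-fold to 1.19-fold.

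High and Low worms differed at few of these genes. In the 22G class, 2 of the 91 tested genes (2.2%) passed an adjusted p of 0.05, where 780 of 9402 features (8.3%) passed over the whole table (limma-trend with Benjamini-Hochberg adjustment). mrpl-36 rose and mrps-23 fell in High worms. Over the whole table, 5.64% of features were called higher and 2.66% lower. The counts by edgeR and DESeq2 were 2 and 1 of 91, against 8.21% and 7.48% of all features, and limma without a trend in the spread called 0, against 5.57%. At an unadjusted p under 0.05 there were 7 of 91 genes (7.69%), against 17.6% of all features. In whole-worm libraries, fewer cells that make an RNA and less of that RNA per cell cannot be told apart.

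The differences were spread around zero. High was above Low in 51 genes and below it in 40, with a median log2 difference of 0.03 (0.01 over all tested features). The 95% interval of the difference lay within 2-fold in either direction for 83 of 91 genes (91.2%, against 71.9% of all tested features), and within 1.5-fold for 51. The fitted difference was above 2-fold for mrps-23 and ucr-2.1, both lower in High, which is 2 of 91, against 8.23% of all tested features. By level, 1 of 12 genes with a mean under 20 was called, 0 of 66 with 20 to 100, and 1 of 13 with 100 or more, where 2.52%, 6.27% and 14.9% of all tested features were called in the same ranges.

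**Figure D2:**
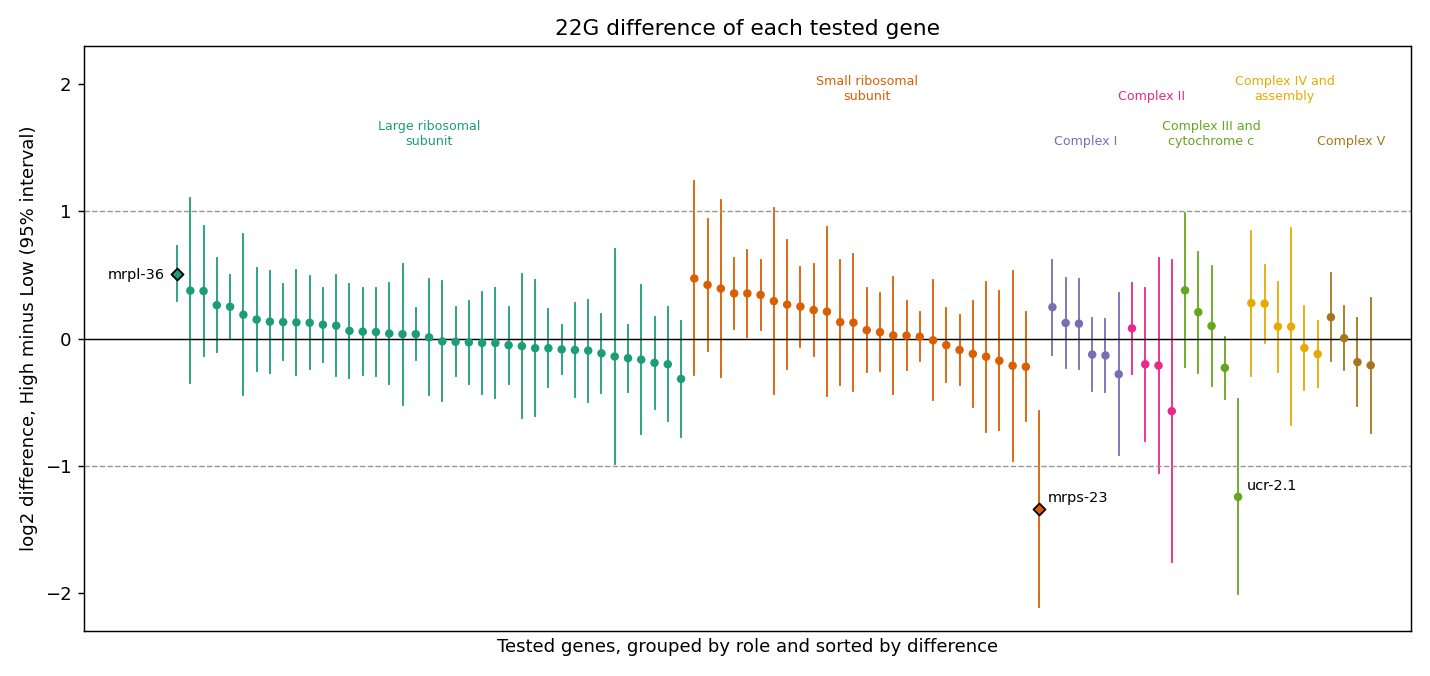
Log2 difference of High minus Low for each of the 91 tested genes, ordered within their role, with the 95% interval of the limma-trend fit. Most intervals lie within 2-fold of no change, and mrpl-36 (0.51) and mrps-23 (-1.34) are the genes past the threshold.

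mrpl-36 had normalized counts of 449, 591 and 529 in High libraries, against 377, 366 and 352 in Low libraries. Every High library was above every Low library. The log2 difference was 0.51 ± 0.10 (SE, n = 3 each; adjusted p = 0.00606 by limma-trend), a 1.42-fold difference with a 95% interval of 1.22 to 1.65. edgeR gave an adjusted p of 0.00726 and DESeq2 0.000372, while limma without a trend gave 0.104. Without Low replicate 1 the difference was 0.53 (adjusted p = 0.00872 by limma-trend). K11H3.2, which adjoins mrpl-36 on chromosome III, had 275, 259 and 243 in High and 158, 179 and 261 in Low. The groups of K11H3.2 overlapped, and it did not pass the test (adjusted p = 0.188 by limma-trend).

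mrps-23 encodes a protein of the small subunit and lay at the low end of the signal. The gene lies on chromosome III. Its normalized counts were 12.11, 5.33 and 8.18 in High libraries, against 16.7, 23.7 and 27.5 in Low libraries. The groups did not overlap, but the values rest on few reads. The log2 difference was -1.34 ± 0.35 (SE), with an adjusted p of 0.0369 by limma-trend, 0.0372 by edgeR, 0.0948 by DESeq2 and 0.0782 by limma without a trend. The call was also lost on leaving out High replicate 2 (adjusted p = 0.134), or High replicate 3 (0.0942), or the second (0.133) or the third (0.147) Low replicate, and it held without Low replicate 1 (0.0231). With the replicate number added to the fit as a block, the adjusted p was 0.062 by limma-trend. mrps-23 lies within an intron of prp-40 on the opposite strand and shares 0 exon bases with it. prp-40 had 112, 87.9 and 63.02 in High libraries and 74.3, 95.5 and 66.7 in Low libraries (adjusted p = 0.837 by limma-trend).

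ucr-2.1, a copy of the gene for the core 2 subunit of complex III on chromosome X, had 8.81, 22.2 and 25.4 in High and 50.0, 35.1 and 42.3 in Low. All High libraries were below all Low libraries, and High replicate 1 was the lowest. The log2 difference was -1.24 ± 0.35 (SE), with an adjusted p of 0.0532 by limma-trend. It therefore missed the threshold in the main test, and it passed without High replicate 3 (adjusted p = 0.0303).

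**Figure D3:**
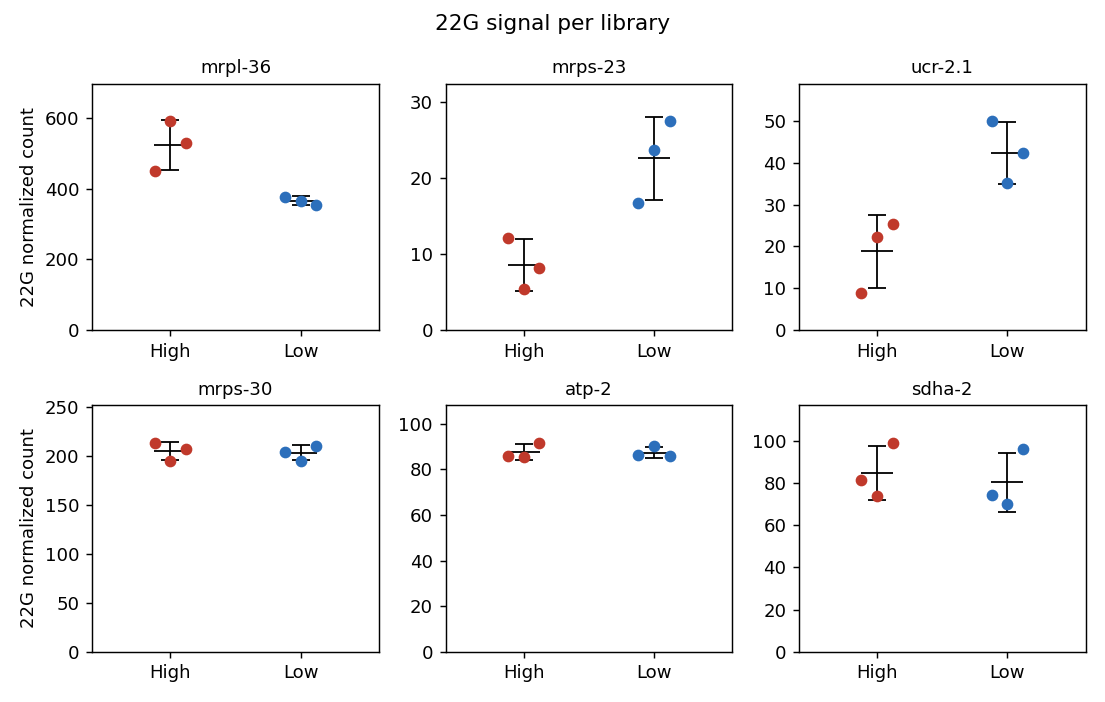
22G normalized count in each library of High and Low for mrpl-36, mrps-23 and ucr-2.1 in the upper row and for mrps-30, atp-2 and sdha-2 in the lower row; points are libraries and bars are the mean and SD of 3 libraries. In the upper row the groups do not overlap, and in the lower row they do.

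The groups of 10 of the 91 genes (11%) did not overlap, against 22.7% of all tested features. For 6 of the 91 High was higher and for 4 lower, against 12.8% and 9.97% of all tested features. Higher in every High library were mrpl-36 and 5 further ribosomal genes, mrps-2, mrpl-4, mrps-28, mrps-24 and mrps-18A. mrps-2 and mrpl-4 are neighbours on chromosome V on the same strand. mrps-2 had 119, 141 and 116 in High and 87.9, 105 and 103 in Low (log2 difference 0.34 ± 0.13, adjusted p = 0.165 by limma-trend), and mrpl-4 had 105, 102 and 107 in High and 84.9, 84.8 and 94.2 in Low (0.25 ± 0.11, adjusted p = 0.281). Neither passed the test. Lower in every High library were mrps-23, ucr-2.1, ucr-1 and atp-3. ucr-1, which encodes the core 1 subunit of complex III, averaged 151 ± 16.4 in High and 177 ± 12.6 in Low (adjusted p = 0.326 by limma-trend), and atp-3, which encodes a stalk subunit of the ATP synthase, averaged 40.4 ± 2.07 in High and 46.1 ± 2.16 in Low (adjusted p = 0.647).

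By role, 1 of 39 large-subunit genes and 1 of 27 small-subunit genes were called, and 0 of 25 tested respiratory chain genes, against 8.3% of all tested features. edgeR and DESeq2 also called 0 of those 25, against 8.21% and 7.48%, and 1 had an unadjusted p under 0.05 by limma-trend. Among the genes with the largest differences that did not pass were mrps-10 (0.47 ± 0.35 on the log2 scale), mrps-35 (0.42 ± 0.23), mrps-24 (0.39 ± 0.32) and cyc-1 (0.38 ± 0.27), which encodes cytochrome c1, on the positive side. On the negative side were sdhd-1 (-0.57 ± 0.54), which encodes a membrane anchor of complex II, mrpl-23 (-0.32 ± 0.21) and nuo-3 (-0.28 ± 0.29). Their adjusted p-values by limma-trend ran from 0.414 for mrps-35 to 0.716 for nuo-3. mrps-5, whose loss is known to lengthen worm life, had 76.0, 71.1 and 68.7 in High and 54.6, 68.8 and 58.2 in Low. Its groups overlapped (adjusted p = 0.427 by limma-trend).

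The summed 22G signal of the 94 genes was 5907, 6176 and 5977 in High, against 5654, 5804 and 5878 in Low. The mean was 6020 ± 139 in High, against 5779 ± 114 in Low, which is 0.289% ± 0.00964 of all 22G signal in High and 0.281% ± 0.00991 in Low. mrpl-36 made up 8.69% of the sum in High and 6.32% in Low, and 65.4% of the difference between the means. Without mrpl-36 the sums were 5458, 5585 and 5448 in High libraries and 5277, 5438 and 5526 in Low libraries, which overlapped. The ribosomal genes, mrpl-36 included, summed to 4582 ± 110 in High and 4325 ± 80.1 in Low, and the respiratory chain genes to 1438 ± 32.4 in High and 1454 ± 34.4 in Low. Of the ribosomal sums, mrpl-36 alone gave 523 in High and 365 in Low.

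**Figure D4:**
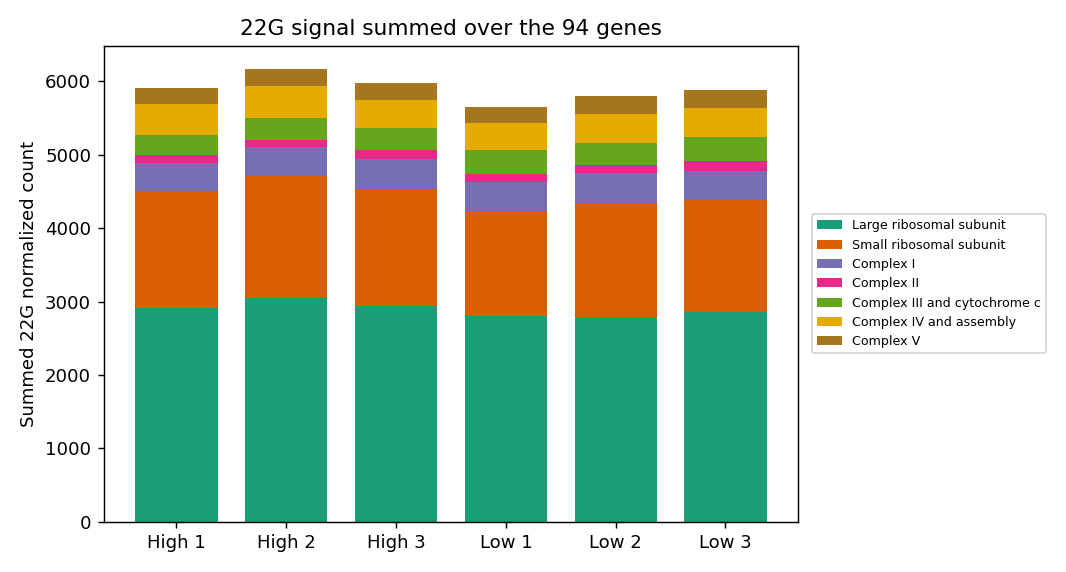
Summed 22G normalized count of the 94 genes in each library of High and Low, stacked by role; each bar is 1 library. The High bars end between 5907 and 6176 and the Low bars between 5654 and 5878, and the ribosomal genes make up most of every bar.

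Several proteins are encoded by more than 1 gene, and the copies are compared here per kb of exon. sdha-2, a gene for the flavoprotein of succinate dehydrogenase, averaged 41.6 normalized counts per kb in High and 39.5 in Low, while its X-linked copy sdha-1 averaged 3.31 in High and 3.84 in Low. For cytochrome c, cyc-2.1 averaged 85.5 per kb in High and 74.3 in Low, and cyc-2.2 had 0 reads in all 6 libraries. In each of the 6 libraries sdha-2 and cyc-2.1 were above their copies.

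The core 2 subunit of complex III has 3 genes. ucr-2.3 averaged 34.1 per kb in High and 31.6 in Low, ucr-2.1 averaged 13.1 in High and 29.7 in Low, and ucr-2.2, another X-linked gene, averaged 2.52 in High and 2.68 in Low. Every ucr-2.3 value was above every ucr-2.1 value in High libraries, and the values of the 2 genes overlapped in Low libraries. Of the S18-type genes of the small subunit, mrps-18A averaged 138 per kb in High and 108 in Low, mrps-18B averaged 48.2 in High and 43.7 in Low, and mrps-18C averaged 102 in High and 108 in Low. T14B4.2, which falls outside the 94 genes and is named mrps-18.C by Ensembl, averaged 92.1 per kb in High and 81.0 in Low. None of these copies passed the test between High and Low, where a test was made.

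Parts of the respiratory chain carry other names and fall outside the 94 genes. Of 45 such genes, 43 were tested and 3 passed, 2 higher and 1 lower in High, against 8.3% of all tested features. asb-2, which encodes subunit b of the ATP synthase and lies on chromosome X, had 468, 314 and 385 normalized counts in High libraries, against 165, 236 and 198 in Low libraries. The groups did not overlap, and the log2 difference was 0.95 ± 0.16 (SE; adjusted p = 0.00187 by limma-trend). Its copy asb-1 did not pass the test and averaged 23.6 ± 1.63 in High and 29.05 ± 7.77 in Low. F26E4.6, annotated by Ensembl as the complex IV gene cox-7C, averaged 198 ± 28.8 in High and 135 ± 6.97 in Low (0.54 ± 0.12, adjusted p = 0.0119 by limma-trend), and lost the call without Low replicate 2 (0.0572) and by limma without a trend (0.0911).

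mev-1 and isp-1, which encode a membrane subunit of complex II and the Rieske protein of complex III, are known from mutants with altered lifespan. mev-1 averaged 84.8 ± 6.10 in High and 92.6 ± 18.6 in Low, and isp-1 averaged 42.7 ± 9.90 in High and 48.5 ± 6.31 in Low, and neither passed the test. With the 13 rows that match the name pattern only by their current Ensembl symbol, F26E4.6 among them, 3 of 102 tested genes were called. That is 2.94%, against 8.3% of all tested features.

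**Figure D5:**
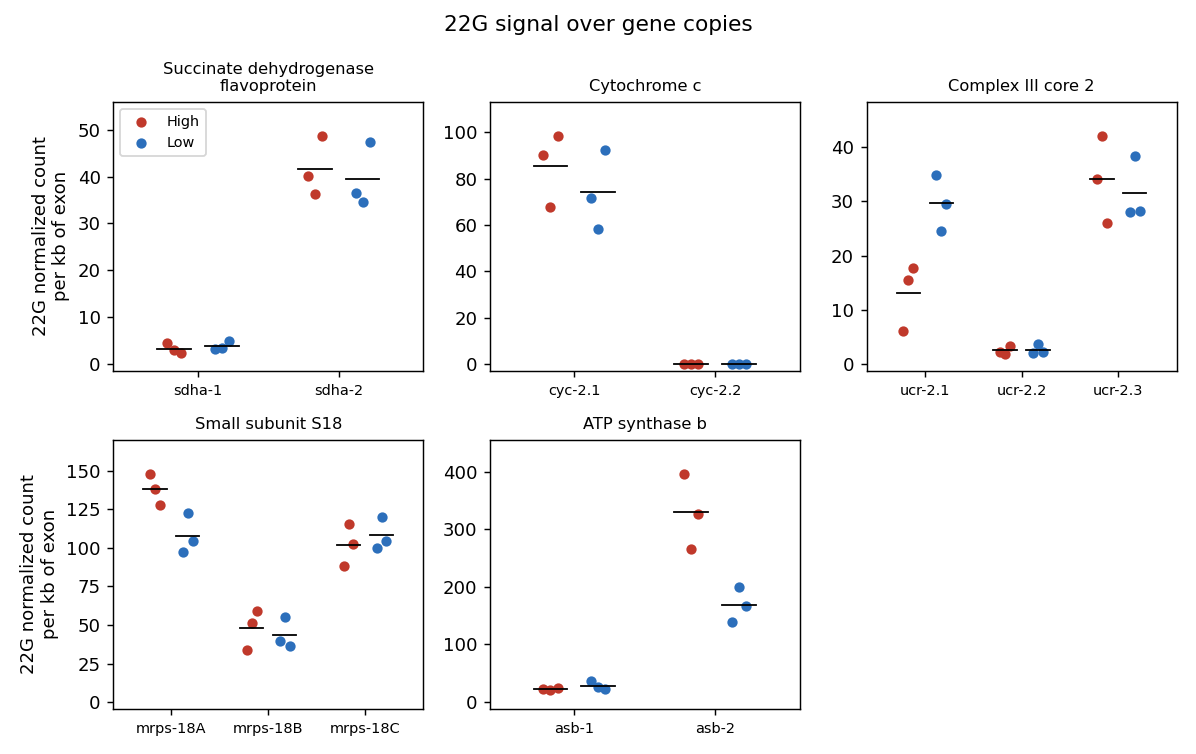
22G normalized count per kb of exon in each library of High and Low for the copies of 5 proteins; points are libraries and black lines are group means. sdha-2, cyc-2.1 and asb-2 lie above their copies in every library, and asb-2 is higher in every High library than in every Low library.

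The 5 further lists described other mitochondrial functions. Of 12 tested TCA cycle genes, 1 was called: suca-1, a succinyl-CoA synthetase gene on chromosome X, averaged 57.6 ± 4.73 in High and 91.9 ± 8.18 in Low (log2 difference -0.67 ± 0.14, adjusted p = 0.00897 by limma-trend and 0.0637 by DESeq2). That count is at the share over all tested features, 8.3%. limma-trend, edgeR and DESeq2 called 0 of 14 import genes, 0 of 13 genes of ubiquinone synthesis and assembly, and 0 of 15 other mitochondrial ribosome and translation genes, with 0 at an unadjusted p under 0.05 by limma-trend in each. The same tools called 0 of 11 genes of the mitochondrial stress response and proteases. Of these, 3 had an unadjusted p under 0.05 by limma-trend, against 17.6% of all tested features. hsp-60, the mitochondrial chaperonin gene, averaged 881 ± 38.1 normalized counts in High and 742 ± 109 in Low (adjusted p = 0.175 by limma-trend, and 0.00899 without Low replicate 1). It stayed uncalled in 16 of 17 settings. Over all related genes, 4 of 108 tested (3.7%) were called, 2 higher and 2 lower, against 8.3% of all tested features.

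Exons of 27 of the 90 genes matched to Ensembl overlap those of another annotated gene, and the sources used here do not say whether reads were counted by strand. Of the matched genes without such overlap, 62 were tested and the same 2 were called, against 8.3% of all tested features. The largest shares of overlap were with genes on the same strand, which counting by strand would not separate. They were 783 of 1078 exon bases of nuo-3, 169 of 609 of mrps-16, 195 of 811 of mrps-18A and 276 of 1521 of mrpl-1. How reads in shared bases were assigned is not given, which limits the values of nuo-3 and mrps-18A above. T25D3.3, which shares 65 exon bases with mrpl-28 on the opposite strand, had 361, 180 and 155 in High and 42.4, 46.6 and 38.1 in Low (log2 difference 2.33, adjusted p = 0.000106 by limma-trend). mrpl-28 averaged 57.0 ± 6.03 in High and 53.6 ± 10.6 in Low (0.10 ± 0.18, adjusted p = 0.852). hmit-1.3, which shares 51 exon bases with mrpl-35 on the opposite strand, rose by 0.99 on the log2 scale (adjusted p = 0.000315), while mrpl-35 averaged 167 ± 5.64 in High and 163 ± 8.32 in Low (0.03 ± 0.09, adjusted p = 0.912).

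The genes that mitochondrial DNA itself encodes had no 22G reads. All 36 rows of mitochondrial DNA were at 0 of 12748358 reads in the 22G tables and at 0 of 279046 in the 21U tables. The 26G tables held 2 reads over these rows, of 147085.

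The other small RNA classes barely covered the 94 genes. 26G RNAs are made on messenger RNAs in the germline and embryo, and 26 reads fell on 16 of the genes, 17 in High and 9 in Low, so that none was tested. mrpl-23 had the most 26G reads, 7. In the whole 26G class, limma-trend called 0 of 272 features (0%), with 3 (1.1%) at an unadjusted p under 0.05, and edgeR and DESeq2 called 0. The 21U class, named after the piRNAs, had 247 reads on 59 of the genes. sdha-2 alone was tested, with 3.30, 8.88 and 7.37 in High and 6.06, 2.29 and 14.8 in Low. The groups of sdha-2 overlapped and the log2 difference was -0.02 ± 0.59 (SE, adjusted p = 0.989 by limma-trend; 0.169% of the class was called). mrps-18C followed with 31 reads. The number of 21U features called was 1 in the main test, 33 without Low replicate 1, and between 0 and 53 over all fits with a library left out. None of the 94 genes was called in any of these fits.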

How the data were processed

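Per the submitters' processing notes, the tools were featureCounts 1.4.6, DESeq2 1.8.1, cutadapt 1.7.1 and Bowtie 1.1.1. What each did, the build, the annotation, strand handling and how 22G, 26G and 21U reads were told apart: not given in the sources used here. Per the labels' protocols, 1 µg of total RNA was treated with phosphatase and kinase and sequenced as 50-nt reads of inserts of 18 to 36 bp. The deposited signal values are read counts that the authors divided by a size factor for each library. Whole reads were recovered from them (100% of nonzero values within 0.01 reads).

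The main test was limma-trend (limma 3.58.1 in R 4.3.3) of High minus Low on log2(normalized count + 1) for features averaging 5 or more normalized counts. It was two-sided, and p-values were adjusted by Benjamini-Hochberg over all tested features of a class. Fold changes are on that scale and understate changes of low genes. With 3 against 3 libraries an exact permutation test cannot go below 0.1, so none was used. edgeR 4.0.16 and DESeq2 1.42.0 were run on the recovered reads. The other alternatives were pseudocounts of 0.5 and 5, no filter, a minimum of 20, TMM scaling, equal totals, no trend, a replicate block, an adjusted p of 0.1, each library left out and, chosen after seeing the data, members by current symbol and members without exon overlap. The test was tested on simulated data. Length, chromosome and overlap come from Ensembl release 115, which 90 of the 94 genes matched.

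The genes and lists were chosen with earlier results of these data known. Named are the called genes, the 5 largest differences each way, the leading 3 of each role by level and 1 per kb, gene copies and, per list, called genes and the leading 2; values are given for part of them, and 1 called gene of the related lists is not reported here. mrps-5, mev-1, isp-1, asb-1, prp-40, K11H3.2, T25D3.3, T14B4.2, hmit-1.3, mrpl-4, mrpl-30, mrpl-28 and mrpl-35 were chosen after their values were seen. Python 3.11.15 with Matplotlib 3.10.9 drew the figures.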

Additional observations from a re-analysis of the deposited data

How the results depend on the processing

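The count of called 22G genes was 2 of 91 tested in the main test, with pseudocount 0.5, TMM scaling, equal totals and edgeR. In these settings 8.21% to 8.55% of all features were called. With a minimum of 20 it was 1 of 79, against 10.3% of all features (mrps-23 then had too few reads to be tested). It was 1 of 91 with DESeq2 (7.48% of all features) and with the replicate block (8.32%). By limma without trend it was 0 of 91 (7 at an unadjusted p under 0.05). It was 3 of 91 with pseudocount 5 (8.37% of all features), 3 of 92 with no filter (5.02%) and 3 of 91 at an adjusted p under 0.1. ucr-2.1 was the gene added in these settings. When a library was left out it was 1 to 2 of 91, against 6.71% to 8.53% of all features. It was 3 of 102 with the genes matched by current symbol and 2 of 62 without exon overlap, against 8.3% in the main test. limma without trend called 5.57% of all features. To look for pairing, the group mean of each feature was subtracted from its log2 values, and the deviations left in High and Low libraries were correlated. In the 22G class, the deviations of same-numbered libraries correlated at 0.0343, 0.0463 and 0.0196. Those of the other pairs of a High and a Low library correlated at -0.0825 to 0.0379. The deviations of High replicates 1 and 2 correlated best with the Low library of the same number, and those of High replicate 3 with Low replicate 2. Correlations this small do not settle whether the replicate numbers pair the libraries. mrps-23 lost its call in 7 of the alternatives, among them the replicate block (adjusted p = 0.062), and mrpl-36 only by limma without trend. The related genes called were 4 in the main test, 2 by limma without trend, and 3 to 5 with a library left out. asb-2 and F26E4.6 lost their calls by limma without trend (adjusted p = 0.0562 and 0.0911). No call turned round in direction. Of 47 named and tested genes, 40 kept their side of the threshold in every setting that tested them (17, or 16 for genes under the minimum of 20), and 11 changed sign without being called. The median log2 difference of the genes tested in each setting was between -0.0015 and 0.05, and below 0 only without Low replicate 2. mrps-23 and most of the genes in the 26G and 21U classes have few reads, which limits their precision. Apart from the minimum of 20, the cause of these changes was not tested.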

Other observations

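Of 199 tested genes of the 94 and the related lists, 6 lie on chromosome X. Of these 6, 3 were called, among them suca-1, which was lower, and asb-2, which was higher, and 5 had a negative difference. The rest of the 199 held 3 called genes. With 6 genes on X, these shares are imprecise. Over the whole 22G table, 68 of 779 tested features on X were called (8.73%), 12 higher and 56 lower in High, with a median log2 difference of -0.13. The difference was negative in 487 of the 779. On the autosomes 602 of 7690 were called, 468 higher and 134 lower, with a median of 0.02. By DESeq2 the counts were 12 higher and 45 lower on X, against 438 and 117 on the autosomes, and without Low replicate 1 they were 13 and 59, against 471 and 146. This is a description made after the values were seen, and no test of it was run.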
